A study of Ovis aries with 36 samples.

Results

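The 9 genes described here encode proteins of the junctions that join epithelial cells: CLDN1, CLDN4, OCLN, TJP1 and F11R of the tight junction, CDH1 and CTNNB1 of the adherens junction, DSP of the desmosome, and EPCAM, an epithelial adhesion protein. They were taken by symbol from the 35223 genes of the deposited count matrix, in which each of the 9 has 1 row. All 9 passed the filter on low counts, as did 22488 genes in all.

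RNA sequencing was carried out on 36 libraries of cultured sheep (Ovis aries) ruminal epithelial cells, the stratified lining of the forestomach. All cells were synchronised for 2 h with 100 nM dexamethasone, a glucocorticoid, in serum-free medium and then kept at pH 7.2 in a medium with a volatile fatty acid (VFA) mixture modelled on grain or on hay feeding. Grain medium held 71.1 mM acetate, 20.1 mM propionate, 16.0 mM butyrate, 1.7 mM valerate, 1.1 mM isobutyrate and 5.3 mM isovalerate, with a stated total of 115.78 mM. Hay medium held 60.8 mM acetate, 14.6 mM propionate, 9.2 mM butyrate, 1.2 mM valerate, 1.0 mM isobutyrate and 3.0 mM isovalerate, with a stated total of 89.79 mM. Acetate, propionate and butyrate were sodium salts, so sodium differed as well. No culture free of VFAs was analysed here. Harvests took place every 4 h at 6 time points (T0 at 24 h, T4, T8, T12, T16, and T20 at 44 h), and each medium and time point has 3 libraries. The labels do not say whether these 3 came from separate cultures or animals, so the p-values measure the spread between libraries, which may be technical.

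Tight junctions seal the gap between neighbouring cells. Claudins form the strands and set which ions pass, occludin joins them, the scaffold ZO-1 (TJP1) ties them to actin, and JAM-A (F11R) is an adhesion protein beside them. Adherens junctions are built of E-cadherin (CDH1), whose tail holds beta-catenin (CTNNB1), a protein that is also the effector of canonical Wnt signalling. Desmosomes anchor keratin filaments through desmoplakin (DSP). The rumen wall relies on such junctions to keep microbial products and acid out of the blood while VFAs are taken up.

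Total counts were 52.4 to 65.3 M per library in Grain and 55.1 to 68.1 M in Hay. Levels are given as CPM, counts scaled to library size and adjusted by TMM (trimmed mean of M-values), and log2 fold changes are Grain over Hay. The TMM factors were 0.859 to 0.869 in the 3 Grain libraries of T12, 0.913 to 1.05 in the other Grain libraries and 0.982 to 1.09 in Hay. Fibronectin (FN1) alone took 8.19% ± 0.136 of the counts in Grain and 6.54% ± 0.163 in Hay at T12 (SD, n = 3 each). Without TMM the median log2 fold change of all genes moved to -0.19, against -0.07 with it, and at T12 it moved to -0.27. Calls that this scaling changes are given with the comparison they belong to. The label of the cells was checked against marker genes. Epithelial transcripts were present, with KRT5 at 83.3 ± 47.1 CPM in Grain and 69.6 ± 20.0 CPM in Hay (SD, n = 18 each). Mesenchymal transcripts were abundant, with VIM at 13167 ± 1127 CPM in Grain and 6375 ± 310 CPM in Hay. The 16 fibroblast and mesenchymal markers summed to 79835 to 136990 CPM in Grain and 71056 to 97388 CPM in Hay. The 11 basal keratinocyte markers summed to 1088 to 2176 CPM in Grain and 1260 to 1628 CPM in Hay. KRT1 and KRT4 had almost no reads. The markers thus did not settle the label, and which cells gave the junction gene reads was not tested. In RNA from whole cultures, fewer cells of a type and less RNA per cell cannot be told apart.

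Over the 6 time points, 3 of the 9 junction genes were higher in Grain than in Hay (TJP1, EPCAM and OCLN) and 5 were lower (CTNNB1, CDH1, CLDN4, DSP and F11R), while CLDN1 did not pass the test. Adherens junction and desmosome genes lay below their Hay level, with CTNNB1 at 0.509-fold, CDH1 at 0.672-fold and DSP at 0.758-fold, and the tight junction genes were split. Under total-count scaling OCLN lost its call and CLDN1 gained one, as lower in Grain. Differences were widespread in these cultures: 81.8% of all 22488 genes passed the same test, 37.9% as higher and 43.9% as lower in Grain. The share of junction genes that differed was thus close to that of all genes. Their median log2 fold change was -0.05, against -0.07 over all genes, and the median of its size without sign was 0.4, against 0.49 over all genes. For 3 of the 9 genes (TJP1, CDH1 and CTNNB1) no Grain library overlapped any Hay library, which held for 27.2% of all genes.

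**Figure D1:**
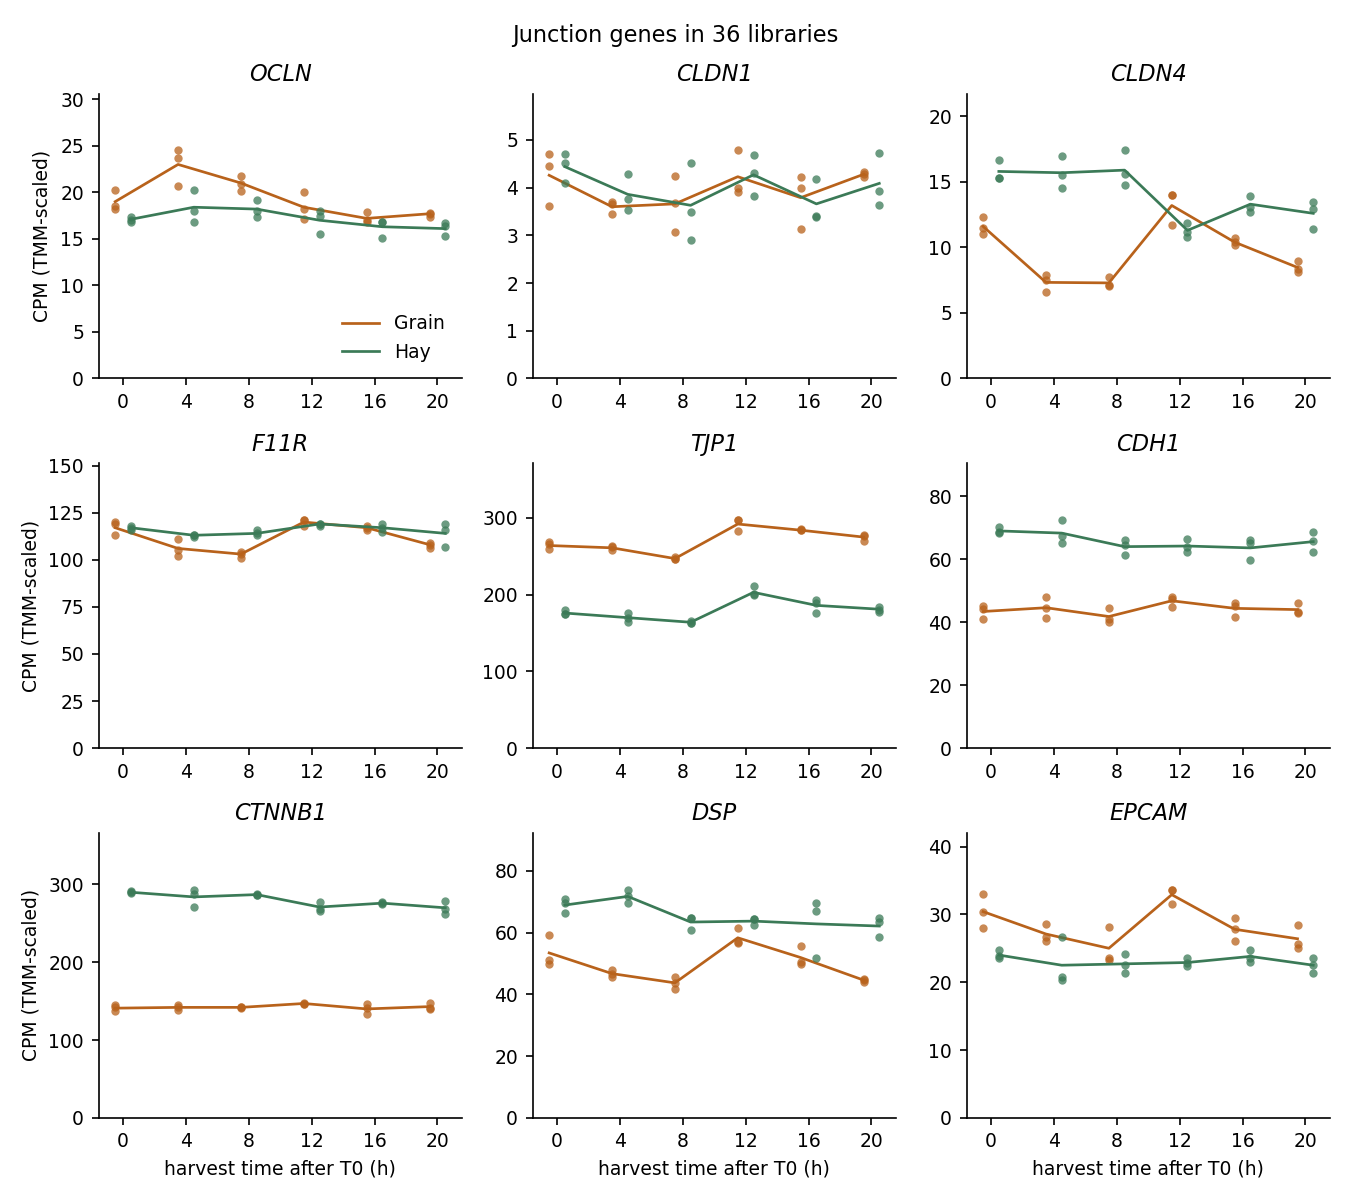
TMM-scaled CPM (vertical axes from 0) of the 9 junction genes against harvest time after T0 in hours. Points are single libraries (3 per medium and time point) and lines join the means; Grain is orange and Hay green. TJP1 lies higher and CDH1 and CTNNB1 lie lower in Grain at all 6 time points without overlap, and the CLDN4 lines cross at T12, where the mean is 13.2 CPM in Grain and 11.3 CPM in Hay.

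TJP1 encodes the scaffold ZO-1. Its Grain libraries ran from 246 to 297 CPM (median 269, n = 18) and its Hay libraries from 163 to 211 CPM (median 177, n = 18). The lowest Grain library stood above the highest Hay library. Its log2 fold change was 0.59 (SE 0.012, adjusted p = 2.84e-32, edgeR quasi-likelihood test over all genes), or 1.51-fold. At single time points the difference ran from 0.52 at T12 to 0.62 at T4 and passed the test at all 6. Within Grain the level was lowest at T8 (246, 247 and 249 CPM) and highest at T12 (297, 297 and 283 CPM), whereas without TMM the Grain mean was lowest at T12. Hay had the same low and high points, with 166, 163 and 163 CPM at T8 and 199, 211 and 201 CPM at T12. In each medium, the T8 and T12 libraries did not overlap. The difference between the media was not shown to depend on time (adjusted p = 0.379), although it passed with total-count scaling (0.00053).

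OCLN encodes occludin. It had 16.8 to 24.5 CPM in Grain (median 18.3) and 15.1 to 20.3 CPM in Hay (median 16.9), and the ranges of the media overlapped. Its log2 fold change over all time points was 0.17 (SE 0.029, adjusted p = 2.84e-06), but 0.05 without TMM (adjusted p = 0.121), so that call rests on the scaling. The largest difference was at T4, where the 3 libraries held 20.7, 24.5 and 23.7 CPM in Grain and 16.8, 18.0 and 20.3 CPM in Hay. Here all Grain libraries lay above all Hay libraries (0.32, SE 0.071, adjusted p = 0.000165). T8 also passed (0.20, adjusted p = 0.0135), though not when Grain T8 replicate 2 (0.0667) or Hay T8 replicate 3 (0.0683) was left out. The other 4 time points ranged from 0.08 to 0.15 and did not pass.

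CLDN4 encodes a claudin that tightens the seal against sodium in several epithelia. Its course depended on the medium. At T4 the Grain libraries held 6.61, 7.50 and 7.88 CPM, against 15.5, 14.5 and 17.0 CPM in Hay. At T8 they held 7.72, 7.10 and 7.05 CPM in Grain, against 15.6, 17.4 and 14.8 CPM in Hay. At these times CLDN4 in Grain was at 0.468-fold (T4) and 0.457-fold (T8) of its Hay level, with no overlap. At T12 the Grain libraries held 11.7, 14.0 and 14.0 CPM, against 11.2, 10.8 and 11.9 CPM in Hay. There the Grain mean was the higher one, and the lowest Grain library fell within the Hay range.

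CLDN4 had log2 fold changes of -0.44 (T0), -1.10 (T4), -1.13 (T8), 0.23 (T12), -0.34 (T16) and -0.57 (T20). All 6 passed the test, 5 as lower in Grain and T12 as higher (adjusted p = 0.0162). The T12 call was lost without TMM, at a log2 fold change of 0.03 (adjusted p = 0.737). It was lost too when Grain T12 replicate 2 (adjusted p = 0.0657), Grain T12 replicate 3 (0.0669) or Hay T12 replicate 2 (0.0765) was left out. Over all time points CLDN4 stood at 9.72 ± 2.36 CPM in Grain and 14.1 ± 2.03 CPM in Hay (SD over 18 libraries each, time points included), a log2 fold change of -0.56 (SE 0.034, adjusted p = 1.66e-17). The difference between the media changed with time by up to 1.36 log2 units (adjusted p = 3.24e-11 for the medium by time interaction, an F test of 5 contrasts). Within Grain the group means spanned 0.86 log2 units (adjusted p = 1.2e-11) and within Hay 0.50 (adjusted p = 3.78e-06). The order of time points differed: the Grain mean was highest at T12, and the Hay mean was lowest at T12.

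CLDN1 encodes a claudin of the barrier in stratified epithelia. It was the lowest of the 9 in counts, with 174 to 271 reads per library in Grain and 189 to 317 in Hay. Its level was 3.97 ± 0.488 CPM in Grain and 3.99 ± 0.536 CPM in Hay (SD, n = 18 each). The log2 fold change was -0.01, with a 95% confidence interval of -0.13 to 0.11 (adjusted p = 0.899), and no single time point passed. Under total-count scaling it was -0.13 (adjusted p = 0.0452), where the median of all genes was -0.19.

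F11R encodes JAM-A. It held 112 ± 7.09 CPM in Grain and 116 ± 3.24 CPM in Hay, and the libraries of the media overlapped. The difference between the media was small, with a log2 fold change of -0.05 (SE 0.013, adjusted p = 0.000581), or 0.965-fold. The median over all genes was -0.07, so F11R was not lower than genes in general. The largest difference was at T8, where Grain libraries held 104, 103 and 101 CPM and Hay libraries 113, 114 and 116 CPM, without overlap (-0.16, adjusted p = 5.16e-05). F11R also passed at T4 (-0.08, adjusted p = 0.0274) and T20 (-0.08, adjusted p = 0.0259). The T4 call was lost in 8 of 36 refits that each left out 1 library, at adjusted p from 0.0508 to 0.167. These were Grain T4 replicates 1 and 2, the 3 Grain T12 libraries, Grain T20 replicate 2 and Hay T4 replicates 1 and 2. The T20 call was lost without Grain T20 replicate 1 (0.0732), Hay T20 replicate 1 (0.0798) or Hay T20 replicate 2 (0.18). At T0, T12 and T16 the log2 fold change was between 0 and 0.01 and did not pass. Under total-count scaling F11R was lower in Grain at these times, with log2 fold changes of -0.15 at T0, -0.18 at T12 and -0.15 at T16, each past the threshold. The medians of all genes under that scaling were -0.2 at T0, -0.27 at T12 and -0.21 at T16.

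CDH1 encodes E-cadherin. Its Grain libraries ran from 40.0 to 48.1 CPM (median 44.5) and its Hay libraries from 59.6 to 72.4 CPM (median 66.0), with no overlap. The log2 fold change was -0.57 (SE 0.022, adjusted p = 7.27e-24). It passed at all 6 time points, from -0.67 at T0 to -0.46 at T12. CDH1 did not differ detectably between time points in Grain (adjusted p = 0.18) or in Hay (0.239), and the interaction did not pass (0.204). In Hay a time difference passed under total-count scaling (adjusted p = 0.00181).

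CTNNB1 encodes beta-catenin and had the largest difference of the 9 for the mean of the time points, although CLDN4 differed more at T4 and T8. The Grain libraries held 134 to 147 CPM (median 142) and the Hay libraries 262 to 293 CPM (median 279). The media were far apart relative to the spread within each. The log2 fold change was -0.97 (SE 0.013, adjusted p = 1.52e-38), and by p CTNNB1 ranked 139 of the 22488 genes. Its size was larger than that of 76.5% of all genes. It passed at each time point, from -1.03 at T0 to -0.89 at T12. In Grain the 6 group means lay within 0.07 log2 units (adjusted p = 0.498), whereas in Hay they spanned 0.10 (adjusted p = 0.0148), with the lower levels at T12, T16 and T20. The interaction passed at an adjusted p of 0.0306, with a range of 0.15. It was lost in 10 of 36 refits without 1 library, at adjusted p from 0.0511 to 0.0914, and without TMM (0.0664). The libraries concerned were Grain T0 replicate 3, Grain T20 replicate 1, the 3 Hay T0 libraries, Hay T8 replicate 1, Hay T12 replicates 2 and 3, and Hay T20 replicates 2 and 3.

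DSP encodes desmoplakin. It held 49.8 ± 5.88 CPM in Grain and 65.5 ± 5.27 CPM in Hay (SD, n = 18 each), and the ranges over all time points overlapped. For DSP the log2 fold change was -0.40 (SE 0.028, adjusted p = 6.67e-16). At T4 the Grain libraries held 46.5, 48.0 and 45.7 CPM and the Hay libraries 73.8, 69.5 and 71.8 CPM. This was the widest gap (-0.62, adjusted p = 4.06e-10). At T12 Grain libraries held 56.7, 61.4 and 56.8 CPM and Hay libraries 62.4, 64.5 and 64.4 CPM. They did not overlap, but the difference of -0.13 did not pass (adjusted p = 0.0913). It passed without TMM (-0.32, adjusted p = 0.000118), when the T12 libraries were fitted alone (0.00807) and without Hay T16 replicate 3 (0.0208). At T16 the groups overlapped through Hay replicate 3, at 51.7 CPM, whereas Hay replicates 1 and 2 held 69.7 and 67.0 CPM. The interaction passed for DSP (range 0.49, adjusted p = 0.000673).

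EPCAM, an adhesion protein best known from simple and glandular epithelia, was higher in Grain. It held 28.3 ± 3.17 CPM in Grain and 23.1 ± 1.56 CPM in Hay (SD, n = 18 each). Its log2 fold change was 0.29 (SE 0.032, adjusted p = 2.25e-10). At T12 the Grain libraries held 31.5, 33.6 and 33.6 CPM and the Hay libraries 22.4, 23.5 and 22.9 CPM. This was the largest difference (0.52, adjusted p = 3.31e-07), with no overlap. The smallest was at T8 (0.14, adjusted p = 0.126). T16 (0.23, adjusted p = 0.0116) and T20 (0.23, adjusted p = 0.0103) passed, but not without TMM (0.358 at T16 and 0.144 at T20). T16 did not pass without Grain T16 replicate 2 (0.0754), nor T20 without Grain T20 replicate 2 (0.0849) or Hay T20 replicate 3 (0.0633).

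**Figure D2:**
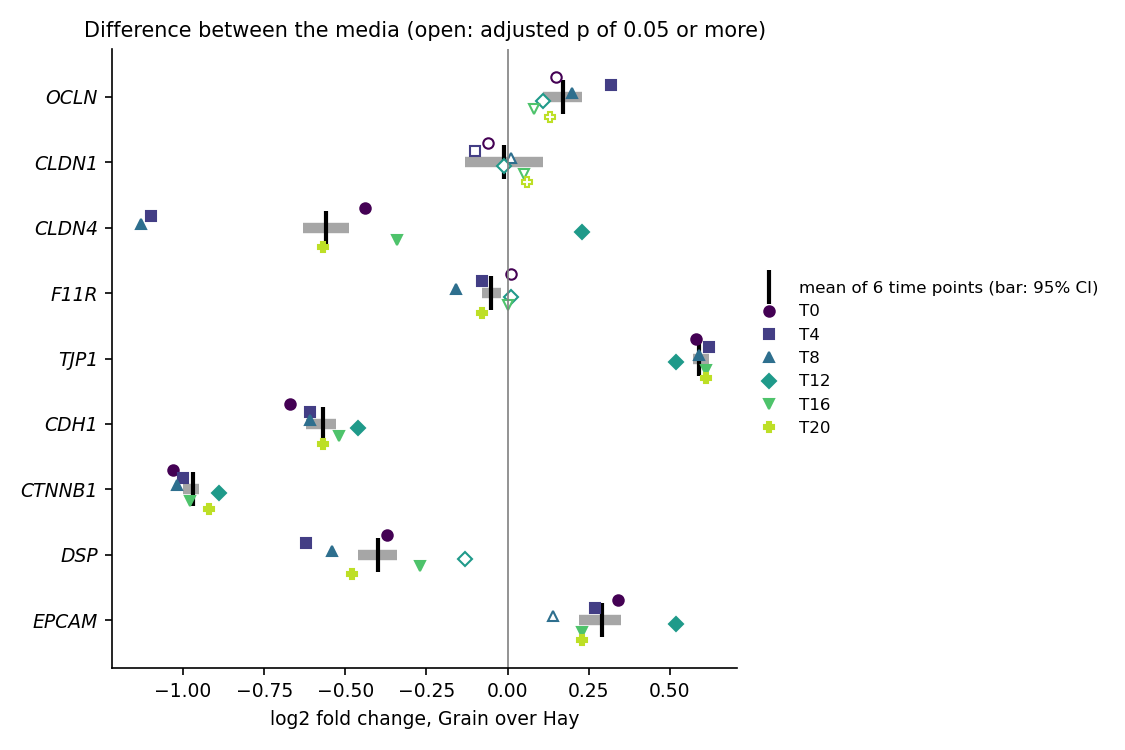
Log2 fold change of Grain over Hay (horizontal axis) for the 9 junction genes. The vertical tick is the mean of 6 time points with its 95% confidence interval as a grey bar, symbols are single time points, and open symbols have an adjusted p of 0.05 or more. CLDN4 spreads from -1.13 at T8 to 0.23 at T12 (0.03 under total-count scaling), whereas TJP1 lies between 0.52 and 0.62.

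At T0, 2 junction genes were higher and 4 lower in Grain, where 31.6% of all genes were higher and 31.2% lower (62.8% together). T4 had 3 higher and 5 lower (all genes: 29.9% higher, 27.9% lower, 57.8% together). T8 had 2 higher and 5 lower (all genes: 29.5% higher, 27.2% lower, 56.8% together). CTNNB1, CDH1, CLDN4 and DSP were among the lower genes and TJP1 among the higher ones at each of these 3 time points. T12 had 3 higher and 2 lower (all genes: 30.7% higher, 33.6% lower, 64.3% together). T16 had 2 higher and 4 lower (all genes: 30.2% higher, 32.5% lower, 62.7% together), and T20 had 2 higher and 5 lower (all genes: 29.7% higher, 29.2% lower, 58.9% together). The 3 libraries of each medium did not overlap for 7 junction genes at T0, T4, T8 and T20 and for 5 at T12 and T16. Over all genes this held for shares of 67.8% (T0), 64.4% (T4), 64.1% (T8), 68% (T12), 65.9% (T16) and 64.5% (T20). T12 was the only one of the 6 time points at which more of the 9 genes were called higher than lower in Grain, and without TMM the numbers there were 2 higher and 4 lower. Over all genes, the calls at T12 were 6915 higher and 7548 lower with TMM, and 4934 higher and 9728 lower without it. The same split was 7106 and 7021 at T0 (5596 and 8736 without TMM) and 6798 and 7310 at T16 (5341 and 9008 without TMM).

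The difference between the media depended on time for 4 of the 9 genes, CLDN4, DSP, F11R (adjusted p = 0.0113) and CTNNB1, against 32.6% of all genes. EPCAM did not pass (adjusted p = 0.0814), but it did with DESeq2 (0.0325) and without Grain T8 replicate 1 (0.0203) or Hay T4 replicate 3 (0.0186). Without TMM, F11R (0.808) and CTNNB1 lost this call and OCLN (0.033) and TJP1 gained it. When the 6 T12 libraries were left out, a setting added after the data were seen, F11R (0.0593) and CTNNB1 (0.205) again did not pass, and the call held for CLDN4 and DSP only.

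Within Grain, 6 of the 9 genes differed between time points (51.5% of all genes): CLDN4, OCLN, TJP1, F11R, DSP and EPCAM. Group means spanned 0.41 log2 units for OCLN (adjusted p = 2.09e-05) and DSP (5.89e-06), 0.39 for EPCAM (0.000444), 0.24 for TJP1 (8.35e-08) and 0.22 for F11R (1.46e-07). CLDN4, TJP1, F11R, DSP and EPCAM had their lowest Grain mean at T8 and their highest at T12 with TMM, whereas without it none of the 5 had this pair of time points, and TJP1 and F11R had their lowest Grain mean at T12. The Grain T12 libraries also had the lowest TMM factors. Under total-count scaling TJP1 (adjusted p = 0.208) and EPCAM (0.0806) no longer differed detectably between Grain time points, and CTNNB1 did (6.38e-07). CLDN4, DSP, F11R and OCLN passed under both scalings. Within Hay, 4 of the 9 genes differed between time points (35.2% of all genes): CLDN4, TJP1 (range 0.31, adjusted p = 9.05e-10), CTNNB1 and DSP (0.21, adjusted p = 0.0454). Under total-count scaling 6 did, with OCLN (0.25, adjusted p = 0.0023) and CDH1 gained, and 8453 genes in all did, against 7927 with TMM. The Hay call of DSP was lost in 17 of 36 refits without 1 library, at adjusted p from 0.0505 to 0.147. These were all Hay libraries but T0 replicate 3, T20 replicate 3 and those of T16, and Grain T4 replicate 1, T8 replicate 2 and T20 replicates 1 and 3.

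**Figure D3:**
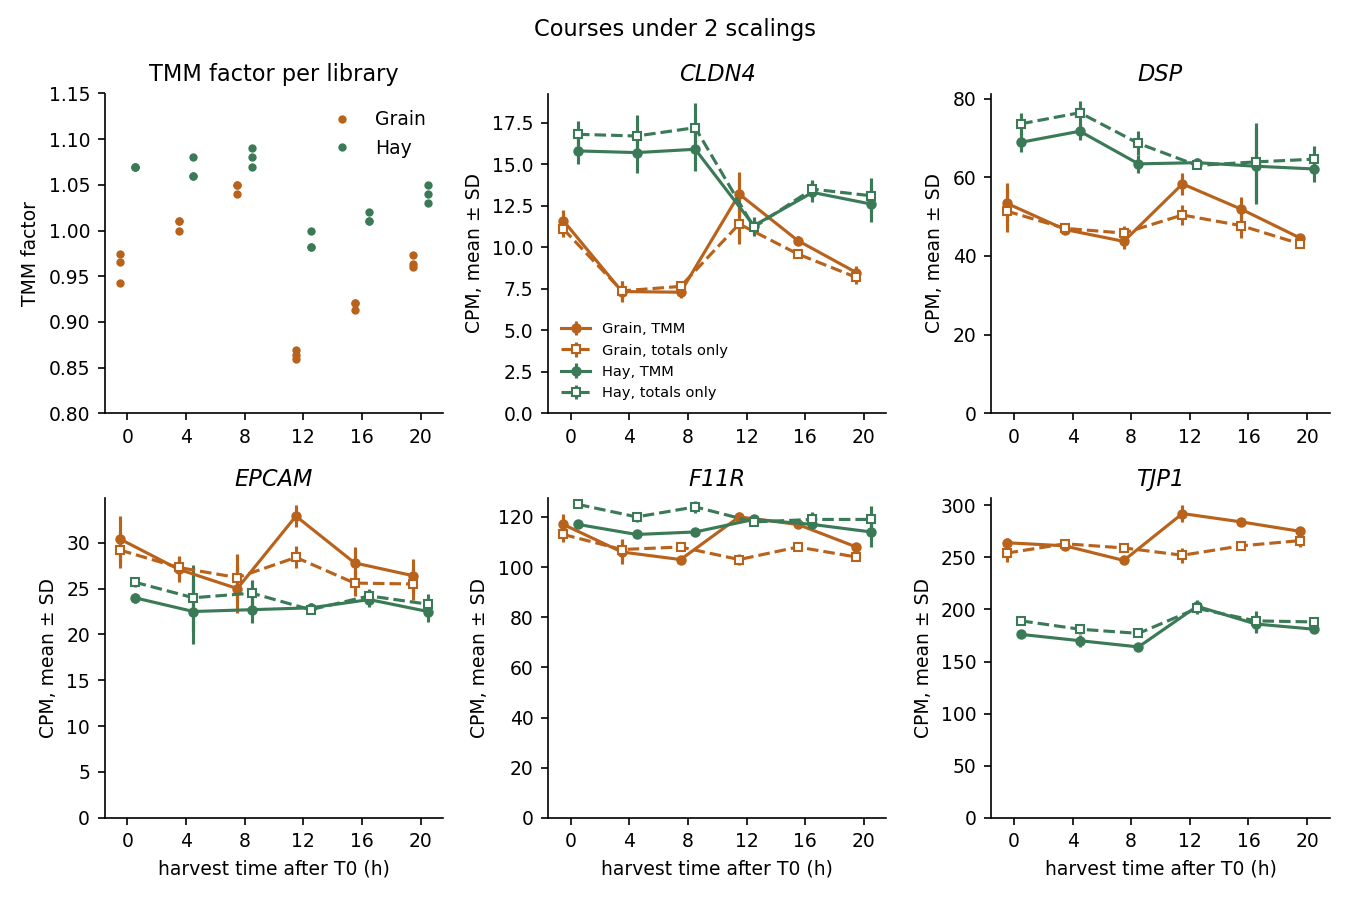
The first panel gives the TMM factor of each library by harvest time, lowest in Grain at T12 (0.859 to 0.869). The other panels give CPM (mean ± SD, n = 3, axes from 0) of CLDN4, DSP, EPCAM, F11R and TJP1 with TMM (filled symbols, solid lines) and with library totals only (open symbols, dashed lines), Grain in orange and Hay in green. With totals only, the T12 mean of CLDN4 is 11.4 CPM in Grain and 11.2 CPM in Hay.

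The time courses were also described with a cosine of 24 h. OCLN had such a component in Grain, with an amplitude of 0.20 log2 units (SE 0.030, adjusted p = 3.87e-05) and a peak 5.15 h after T0. In Hay its amplitude was 0.10 (SE 0.030, adjusted p = 0.0354) with a peak at 5.92 h. The difference between the OCLN cosines was not detectable (adjusted p = 0.258). The Hay call was lost without Hay T4 replicate 2 (0.0541), Hay T4 replicate 3 (0.122), Hay T8 replicate 1 (0.0872), Hay T16 replicate 2 (0.0926) or Hay T20 replicate 3 (0.0815). TJP1 had a component of 0.09 in Grain (SE 0.024, adjusted p = 0.0112, peak at 16.1 h) and of 0.10 in Hay (SE 0.024, adjusted p = 0.00469, peak at 15.2 h). Neither held without TMM (0.846 in Grain and 0.104 in Hay). Besides that of CLDN4 in Hay, total-count scaling added 24 h calls for CTNNB1 in Grain (0.00682) and for CDH1 (0.0015), CTNNB1 (0.00407) and DSP (0.00856) in Hay. OCLN and TJP1, 2 genes of 9, compare with 31.8% of all genes in Grain and 20.7% in Hay.

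CLDN4 was the 1 junction gene of 9 whose 24 h component differed between the media (adjusted p = 0.0163, 11.3% of all genes). Its fitted peak was at 16.1 h in Grain and at 3.35 h in Hay, with amplitudes of 0.24 (SE 0.081) and 0.22 (SE 0.076), neither of which passed within its medium (0.0617 in Grain and 0.0965 in Hay). In Grain it passed with DESeq2 (0.0308), without the T12 libraries (0.0056) and without any 1 of the 3 T0 or 3 T20 Grain libraries (0.0165 to 0.0395). In Hay it passed under total-count scaling (0.0131), with Hay fitted alone (0.00264) and with DESeq2 (0.0496). The Grain course had high points at T0 and T12 rather than 1 peak. A cosine of 12 h, added after the data were seen, passed in Grain for CLDN4 (amplitude 0.39, adjusted p = 0.000544), DSP (0.20, 0.000782), EPCAM (0.18, 0.00152) and F11R (0.10, 0.00148). The 12 h cosine passed for 3989 genes in all in Grain, and it was fitted with TMM only. With 6 time points over 20 h, each phase of a 24 h cycle was sampled once, so recurrence was not tested.

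The 12 group means of a gene were ordered, and neighbours in that order were compared library by library. All 11 neighbouring pairs overlapped for CLDN1, OCLN and EPCAM, 10 for F11R and CDH1, 9 for CTNNB1, 8 for DSP, 7 for CLDN4 and 6 for TJP1. Thus, among these genes and with TMM, TJP1 had the most distinct steps between groups and CLDN1, OCLN and EPCAM had none. The same numbers were not obtained over all genes or without TMM. Without TMM the Grain means of TJP1 ran only from 252 CPM at T12 to 266 CPM at T20.

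Across the 6 Grain group means, which share scaling, the log2 levels of CLDN4 and DSP correlated at r = 0.95 (0.79 without TMM) and those of DSP and EPCAM at 0.96 (0.85 without TMM). CLDN4 and F11R correlated at 0.97 with TMM and at 0.19 without it. Across the 6 Hay group means CLDN4 and DSP correlated at 0.61 (0.83 without TMM). DSP and EPCAM correlated at -0.01 in Hay (0.57 without TMM), and CLDN4 and F11R at -0.55 (0.84 without TMM). These values describe 6 points each.

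For each junction gene, the genes with the most similar profile over the 12 group means were found by Pearson's r among genes reaching 5 CPM in 1 group or more. CLDN4 was most like CDKN1A (r = 0.976), which encodes the cell cycle inhibitor p21, and TP53INP1 (0.966), a p53-induced gene. TJP1 was most like KLF7 (0.998) and RNF19A (0.997). CDH1 was most like PCDH18 (0.997), a protocadherin. CTNNB1 was most like TGFB2 (0.997), a TGF-beta ligand, and CPEB2 (0.997). DSP was most like MRM3 (0.981) and KRT19 (0.974), a keratin, and EPCAM was most like PSMB8 (0.982), an immunoproteasome subunit, and PPIF (0.979). OCLN was most like COPS4 (0.934) and ATP2B1 (0.922), F11R most like RITA1 (0.939) and BTBD3 (0.935), and CLDN1 most like NUBP2 (0.750) and NIN (0.717). All of these are the highest r of a search over many genes with 12 points each. CLDN1 itself did not differ detectably between the media or between time points (adjusted p = 0.382 in Grain and 0.435 in Hay, F tests). For TJP1, CDH1 and CTNNB1 the 12 means form separate Grain and Hay clusters, so their r reflects that gap as well as the course over time. The same holds for DSP and EPCAM, whose Grain and Hay means do not overlap either. The nearest means were 58.3 CPM in Grain and 62.1 CPM in Hay for DSP, and 25 CPM in Grain and 24 CPM in Hay for EPCAM.

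The other genes of each junction were taken from lists, and counts are of members that passed the filter and the test for the mean of the time points. Of 14 further claudins 6 rose and 6 fell in Grain (median log2 fold change 0.11, and -0.01 without TMM). CLDN12 was higher, at 96.8 ± 6.88 CPM in Grain against 69.5 ± 4.10 CPM in Hay (0.48, SE 0.018), and CLDN6 lower, at 4.35 ± 0.516 CPM in Grain against 7.07 ± 0.744 CPM in Hay (-0.70, SE 0.050). CLDN20 was higher (0.93, SE 0.079), but it overlaps TFB1M in the annotation, so its reads cannot be assigned without strand. The other 6 claudins of the list had too few counts to be tested.

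Of 32 other tight junction genes 18 rose and 7 fell (median 0.14), and without TMM 13 rose and 12 fell (median 0.02). The polarity genes PARD3 (115 ± 4.17 CPM in Grain and 60.7 ± 5.72 CPM in Hay, log2 fold change 0.92) and PARD6B (30.5 ± 2.27 CPM in Grain and 13.9 ± 1.12 CPM in Hay, 1.13) rose. AMOTL2, an angiomotin-family scaffold, fell to 27.8 ± 2.14 CPM in Grain, against 70.1 ± 2.98 CPM in Hay (-1.34). PARD3 overlaps another annotated gene.

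Of 22 cadherins and adherens junction partners 6 rose and 15 fell (median -0.42, and 3 and 17 without TMM). LIMA1, an actin-binding partner of the cadherin complex, fell to 162 ± 15.6 CPM in Grain, against 283 ± 11.0 CPM in Hay (-0.81). CDH11, a cadherin of mesenchymal cells, fell too (-0.57), but the cadherin CDH2, which overlaps another annotated gene, rose (0.43). CDH2 stood at 120 ± 15.6 CPM in Grain and 88.7 ± 8.81 CPM in Hay. LIMA1 overlaps another annotated gene. Vinculin, VCL, which links cadherin and integrin complexes to actin, rose (0.61), with 372 ± 93.5 CPM in Grain and 238 ± 35.2 CPM in Hay. Of 15 desmosome genes besides DSP 1 rose and 12 fell (median -0.42). The desmosomal cadherins DSC2 (41.7 ± 4.12 CPM in Grain and 94.5 ± 5.27 CPM in Hay, -1.18) and DSG2 (26.5 ± 4.72 CPM in Grain and 49.2 ± 3.90 CPM in Hay, -0.91) fell, and PKP4, which also sits at adherens junctions, was the one that rose (0.69). Over all genes 37.9% rose and 43.9% fell in the same comparison.

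Of 11 EPCAM partners and surface proteases with a test 5 rose and 3 fell (median 0.10, and 3 and 5 with a median of -0.02 without TMM). SPINT1, an inhibitor of matriptase, rose (0.64; it overlaps another annotated gene), as did the sheddase ADAM17 (0.39; it overlaps 2 others), and TSPAN8 had no reads in any library. Among the 3 EPCAM partners and surface proteases that fell were ST14 (-0.25) and CD9 (-0.17), the latter overlapping another annotated gene. Of 22 genes of beta-catenin turnover and its partners 8 rose and 11 fell (median -0.23). AXIN1 (26.3 ± 2.12 CPM in Grain and 9.97 ± 1.01 CPM in Hay, 1.40) and APC (382 ± 64.3 CPM in Grain and 190 ± 21.1 CPM in Hay, 0.99), scaffolds of the complex that degrades beta-catenin, rose. LEF1, a transcription factor that binds beta-catenin, fell to 10.3 ± 0.987 CPM in Grain, against 29.1 ± 5.32 CPM in Hay (-1.47).

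Of 15 epithelial transcription and splicing factors 2 rose and 9 fell (median -0.47). TP63, the regulator of stratified epithelia, fell (-0.77, with 4.88 ± 0.645 CPM in Grain and 8.32 ± 0.914 CPM in Hay), and so did KLF5 (-0.47) and TFAP2C (-0.59). Of 11 repressors of epithelial genes, a group that acts on CDH1 among others, 5 rose and 6 fell (median -0.06). TWIST1 rose (0.34), and TCF3 (-0.42) and TCF4 (-0.51) fell.

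**Figure D4:**
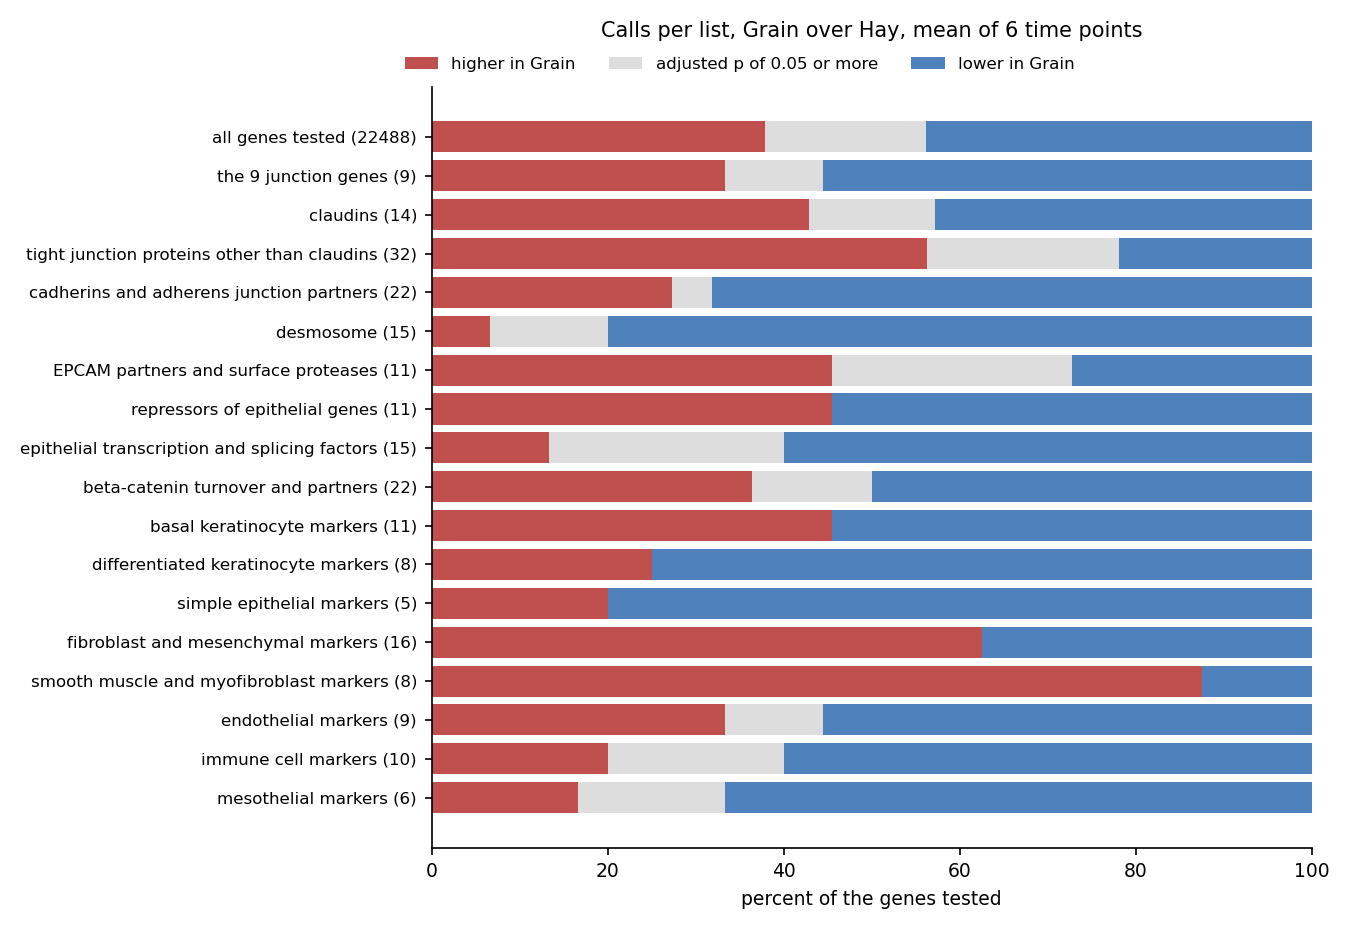
Share of tested genes (horizontal axis, percent) that were higher in Grain (red), did not pass (grey) or were lower in Grain (blue) for all genes, the 9 junction genes and 16 lists, with the number tested in brackets. The desmosome bar is mostly blue (12 of 15 lower, 1 higher), and the bar of the other tight junction proteins has 18 of 32 higher (13 of 32 without TMM).

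Markers of epithelial and other cell types moved with the medium beside the junction genes. Of 11 basal keratinocyte markers 5 rose and 6 fell, and their summed level was 1088 to 2176 CPM in Grain and 1260 to 1628 CPM in Hay. KRT14 (0.74) and COL17A1 (0.77) rose. Of 8 differentiated keratinocyte markers 2 rose and 6 fell (56.5 to 97.5 CPM in Grain and 63.3 to 106 CPM in Hay in all libraries). LORICRIN rose (0.28) and KRT13 (-0.89) and KRT6A (-0.11) fell, while KRT4 and KRT1 had at most 3 and 4 reads in a library. Of 5 simple epithelial markers 1 rose and 4 fell, with a summed level of 77.6 to 138 CPM in Grain and 164 to 206 CPM in Hay that did not overlap. KRT8 (-1.22), KRT19 (-0.66) and KRT18 (-0.50) fell.

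Of the 16 markers of fibroblasts and mesenchyme 10 rose and 6 fell, and their sum was 79835 to 136990 CPM in Grain and 71056 to 97388 CPM in Hay. By group the sum was highest in Grain at T12, at 134637 ± 2154 CPM, and lowest in Grain at T8, at 80706 ± 942 CPM, against 94778 ± 2721 CPM in Hay at T12 and 71990 ± 1488 CPM in Hay at T8 (SD, n = 3 each). Most of this sum was FN1, at 75025 ± 12418 CPM in Grain and 59792 ± 5022 CPM in Hay (SD, n = 18 each). The FN1 share of the Grain counts was also lowest at T8 (5.99%) and highest at T12 (8.19%). The course of the sum thus cannot be read as that of fibroblast content. With TMM, CLDN4, F11R, TJP1, DSP and EPCAM had the same lowest and highest Grain time points. VIM (1.04) and POSTN (1.59) rose and COL1A2 (-0.74) fell. Of 8 smooth muscle and myofibroblast markers 7 rose and 1 fell (446 to 1103 CPM in Grain and 228 to 1092 CPM in Hay). DES (3.12), ACTG2 (1.55; it overlaps another annotated gene) and TAGLN (0.79) rose. Of 9 endothelial markers 3 rose and 5 fell, and the sum was 79.9 to 135 CPM in Grain and 50.7 to 78.2 CPM in Hay, without overlap. EMCN (2.07) and FLT1 (1.21) rose and ERG fell (-0.31), and PECAM1 stood at 2.32 ± 0.428 CPM in Grain and 1.05 ± 0.268 CPM in Hay.

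Immune markers summed to 4.35 to 5.90 CPM in Grain and 6.94 to 9.50 CPM in Hay, with 2 of 10 higher and 6 lower, and PTPRC, the pan-leukocyte gene, stood at 0.373 ± 0.188 CPM in Grain and 0.872 ± 0.293 CPM in Hay. Of 6 mesothelial markers 1 rose and 4 fell (38.3 to 49.3 CPM in Grain and 54.7 to 67.7 CPM in Hay). Among them, BNC1 rose (0.17, a call lost without TMM; it overlaps 2 others), and MSLN (-0.21) and LRRN4 (-1.06; it overlaps CRLS1) fell. The part of these markers in the differences of the junction genes was not tested.

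In the RefSeq annotation OCLN, TJP1, F11R, CDH1 and DSP each overlap another gene. The library kit keeps no strand, so reads of overlapping genes cannot be told apart. The partners of OCLN, F11R and CDH1 that have a row in the table, and the uncharacterised partner of DSP, held at most 2, 7, 11 and 2 reads in a library. DSP also overlaps a transfer RNA gene whose symbol, TRNAE-UUC, stands on 138 rows of the table. Together these rows held 106 to 159 reads per library in Grain and 135 to 185 in Hay, or 4.57% of the DSP counts in Grain and 3.88% in Hay, and which row lies within DSP was not matched. The partner of TJP1 had no row under its symbol in the table, so its reads could not be set against those of TJP1. Among the other genes named, PKP4, APC, TP63, TCF3, TCF4, PECAM1, PTPRC, COPS4 and TP53INP1 also overlap an annotated gene.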

How the data were processed

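The deposited matrix holds raw read counts per gene and library, whole numbers made by the authors without normalisation. Per the labels' protocols, TRNzol RNA was cleared of DNA and made into TruSeq v2 libraries, a kit without strand, for paired-end NovaSeq reads. The submitters' processing notes name HISAT2 2.2.1, SAMtools 1.20 and StringTie 2.1.5. For the counting step, the tool was not given in the sources used here, nor was the genome build. Samples were grouped by their labels.

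From the counts, genes were filtered with filterByExpr of edgeR 4.0.16 (minimum count 10, minimum total 15, 12 groups) and scaled by TMM, and a quasi-likelihood model with 12 group means was fitted (limma 3.58.1, R 4.3.3). Tests were two-sided, p-values were adjusted by Benjamini-Hochberg over all 22488 genes, and the threshold was 0.05. A cosine and sine of 24 h were fitted per medium in a second model. The procedure was also run on simulated counts in which only a small part of the genes changed, so that run could not probe the scaling. The 9 genes and the 16 lists (231 genes, of which 5 had no entry) were chosen with earlier results of these data known. Of each list, up to 3 genes with the smallest p and at least 5 CPM in a medium are named, and others for a defining role; some of these genes are not reported here. Names and overlaps, but no coordinates, came from RefSeq (assembly ARS-UI_Ramb_v3.0). Transcript length was not used, so levels are not compared between genes. Grain and Hay libraries of the same replicate number and time point did not deviate together. Whether libraries of 1 replicate number deviated together across the time points of a medium was not checked. Alternatives were DESeq2 1.42.0, its size factors, total-count scaling, no filter, the replicate block, single time points or media fitted alone, a linear trend, a 12 h cosine, no T12 libraries, and each library left out in turn. Depth limits precision most for CLDN1, and libraries of a group differed by more than counting noise (in 36 pairs, chi-square was 4.76 to 24.2 times its degrees of freedom).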

Additional observations from a re-analysis of the deposited data

Results flagged for a closer look

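For 4 of the 9 junction genes the difference between Grain and Hay was not the same at all time points, by the test of that difference itself. CLDN4 was lower in Grain at T4 (-1.10) and T8 (-1.13) and higher at T12 (0.23), with an adjusted p of 3.24e-11 for the medium by time interaction, and its T12 call was lost under total-count scaling. DSP had its widest gap at T4 (-0.62) and its narrowest at T12 (-0.13), with an adjusted p of 0.000673. F11R was lower in Grain at T8 (-0.16) and within 0.01 of Hay at T0, T12 and T16, with an adjusted p of 0.0113 that was lost under total-count scaling (0.808). CTNNB1 was at -1.03 at T0 and -0.89 at T12, with an adjusted p of 0.0306 that was also lost there (0.0664). The 24 h component of CLDN4 differed between the media with an adjusted p of 0.0163.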

How the results depend on the processing

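Of 828 alternative values of 117 results of single genes, 749 kept their side of the threshold and, where they had a sign, their direction. Of 4212 values with 1 library left out all but 120 did. The 828 include the linear trend and the 12 h cosine, which are other quantities than the 24 h component they were set against. Numbers of genes called are not among them and were compared within 1.5-fold. TJP1, CDH1, CTNNB1, DSP and EPCAM kept their call for the mean of the time points in every alternative run, and so did CLDN4 and F11R. For F11R that mean was -0.05 in the main fit, against a median of -0.07 over all genes. The reversals concern F11R, CLDN1 and OCLN at values that had not passed, and F11R passed as lower in Grain under total-count scaling at T0, T12 and T16. F11R at T0 was -0.04 with DESeq2 size factors and with DESeq2, -0.15 under total-count scaling, -0.02 with no filter and without the T12 libraries, and -0.01 with T0 alone. F11R at T12 was 0 with DESeq2 size factors and with DESeq2 and -0.18 under total-count scaling, and at T16 -0.01, -0.01 and -0.15 with these and 0 without the T12 libraries. Leaving out 1 library moved F11R from -0.01 to 0.03 at T0, from 0 to 0.03 at T12 and from -0.02 to 0.01 at T16. CLDN1 at T8 was -0.04 with DESeq2 size factors, under total-count scaling and with DESeq2, and 0 with no filter and without the T12 libraries. Under total-count scaling CLDN1 was -0.10 at T16 and -0.04 at T20, and OCLN was 0 at T0, -0.08 at T12 and -0.06 at T16. Leaving out 1 library moved CLDN1 from -0.03 to 0.02 for the mean, -0.14 to 0.04 at T0, -0.13 to 0.19 at T8, -0.10 to 0.06 at T12, -0.04 to 0.17 at T16 and -0.02 to 0.18 at T20.

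Without the T12 libraries, 2 junction genes (against 4) passed the interaction, with 5313 genes in all (against 7322). Between Hay time points 2 (against 4) differed, with 5089 genes in all (against 7927). A 24 h component in Grain was called for 4 (against 2), with 6948 genes in all (against 7157). The 24 h component in Grain was called for 4 junction genes by DESeq2 (7964 genes in all). With 1 library left out it was called for 2 to 4 (6316 to 7655 genes in all). In Hay it was called for 2 junction genes and 4647 genes in all in the main fit. The numbers were 5 under total-count scaling (4476 in all), 1 with no filter (4247) and 4 with Hay alone (6279). They were 4 by DESeq2 (5267) and 1 to 2 with 1 library left out (3895 to 4756). The difference of the 24 h component between the media was called for 2 by DESeq2 (3234 genes in all), against 1 in the main fit (2550). With 1 library left out it was called for 1 to 2 (2116 to 2835). A linear trend was called by edgeR for 202 genes in Grain and 572 in Hay and for 0 of the 9, of which 2 in Grain and 4 in Hay had an unadjusted p under 0.05; DESeq2 was not run for it. A 12 h cosine was called for 3989 genes and 4 of the 9 in Grain, for 10 genes and 0 of the 9 in Hay (1 at an unadjusted p under 0.05; DESeq2 was not run), and its difference for 328 genes (against 7157, 4647 and 2550 for 24 h). The cause of these changes was not tested.

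Grain and Hay libraries of the same replicate number and time point did not deviate together (r from -0.0412 to 0.0461 in 18 pairs of libraries). Libraries of the same number at different time points of a medium were not compared. With the replicate number as a block 18362 genes differed between the media, against 18388, with the same numbers of junction genes called in all 13 tests. Low counts limit CLDN1, whose 95% interval spans -0.13 to 0.11.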
